A study of Mus musculus with 8 samples.

Results

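The 10 genes described here are ATF4 and targets of the integrated stress response in mouse bone marrow macrophages: Atf4, Atf5, Ddit3, Trib3, Asns, Sesn2, Chac1, Gdf15, Ddit4 and Ppp1r15a. They were taken by name from the 55376 genes of the deposited count table, and all 10 passed the filter on low counts, which left 13721 genes. They were selected on their measured levels in these 4 groups, with no further detail of which values were used, so their levels and changes are given as a description and without p-values. The libraries came from macrophages grown with M-CSF at 50 ng/mL from the marrow of male mice aged 13 weeks, 3 of each genotype. The genotype label is wild type (WT) or DNMT3A-HET (HET), where Dnmt3a is the gene of a de novo DNA methyltransferase. No label describes the HET allele or says whether it is confined to blood cells. Control cultures had no IL-6, and the others had IL-6, a cytokine that signals through STAT3, at 10 ng/mL from day 6 for 2 days. RNA of all cultures was collected on day 8, and each of the 4 groups has 2 libraries, numbered 1 and 2. Neither the mouse behind each library nor any pooling of mice is stated.

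The integrated stress response begins when a kinase that senses amino acid shortage, endoplasmic reticulum stress, double-stranded RNA or heme deficiency phosphorylates the translation factor eIF2. Most translation then slows, while the mRNAs of ATF4, ATF5 and CHOP (the product of Ddit3) are translated more. ATF4 binds, with CHOP or C/EBP partners, to CARE motifs and raises genes for amino acid synthesis and uptake, for tRNA charging and for its own shut-off. Much of the control of ATF4 acts on translation, so the mRNA levels given here do not measure the proteins.

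The genes themselves were checked first for a shared promoter motif, since ATF4 is known to bind DNA at CARE elements. RefSeq (GRCm38.p6) promoter windows, from 250 bases before to 50 bases after a gene's start, were matched for all 10 genes, in 12 windows. The CARE motif TGATGNAA, searched on both strands, was found in 3 of the 12 windows (Asns, Chac1 and Trib3), and in 3.97% of all 32851 windows. The palindromic CRE motif TGACGTCA, a site type of the ATF and CREB family, was found in 1 of the 12 (Ppp1r15a), and in 1.79% of all windows. These 4 stretches are shown because they hold the matches, with the motif in capitals, and the absence of a match says only that these letters are not in the window.
Asns, chr6:7693214-7693243, minus strand: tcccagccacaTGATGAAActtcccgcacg
Chac1, chr2:119350992-119351116, plus strand: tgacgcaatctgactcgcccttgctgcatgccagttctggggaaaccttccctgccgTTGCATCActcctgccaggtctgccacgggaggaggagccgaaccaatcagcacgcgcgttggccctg
Trib3, chr2:152344028-152344057, minus strand: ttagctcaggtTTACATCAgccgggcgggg
Ppp1r15a, chr7:45526269-45526291, minus strand: cgcctctccggTGACGTCAgcac
Counted from the RefSeq start, the Asns match ends 16 bases before it, the Chac1 match ends 186 and the Ppp1r15a match 5 bases before it, and the Trib3 match is at bases 15 to 22 of the transcript. The deposited gene coordinates, given with each gene below, have the same start for Ppp1r15a and other starts for the rest. Counted from those, the Asns match is at bases 23 to 30 of the gene, and the Chac1 and Trib3 matches end 173 and 7 bases before it. Whether the Asns and Trib3 matches lie before or within the transcript thus differs between the annotations. The Chac1 and Trib3 matches read TGATGCAA and TGATGTAA on the other strand.

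Library totals were 18926641 to 24881197 counts, except for HET IL-6 number 2 with 50137897. Dnmt3a, the gene named in the genotype label, had library-scaled counts (CPM) of 275 and 244 in the WT controls and, by number, 166 and 248 in the HET controls. The IL-6 libraries had 175 and 183 CPM for WT, and 140.1 and 213 for HET. The libraries labelled HET and numbered 2 were thus not below WT. An allele that leaves the mRNA in place would not lower this level, so it does not check the label. Counts of calls are also given without both HET libraries numbered 2 and without both numbered 1. The 6 macrophage markers summed to 5919.58 to 6680.68 CPM in every library, whereas dendritic cell, neutrophil, B and T cell and erythroid markers summed to at most 2.06 CPM in each. Mast cell and basophil markers summed to 5.16 to 8.52 CPM in WT control, 1.72 to 1.82 in WT with IL-6, 2.27 to 3.72 in the HET controls and 3.40 in HET with IL-6, most of it Kit, and Fcer1a was at 0 throughout. Stromal markers summed to 3.23 to 8.65, 5.15 to 10.4, 0.879 to 2.41 and 2.59 to 5.76 CPM in the same order, with Lum at 0. The part of these cells in the results was not tested. In bulk RNA, fewer cells of a type and less RNA per cell cannot be told apart.

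**Figure D1:**
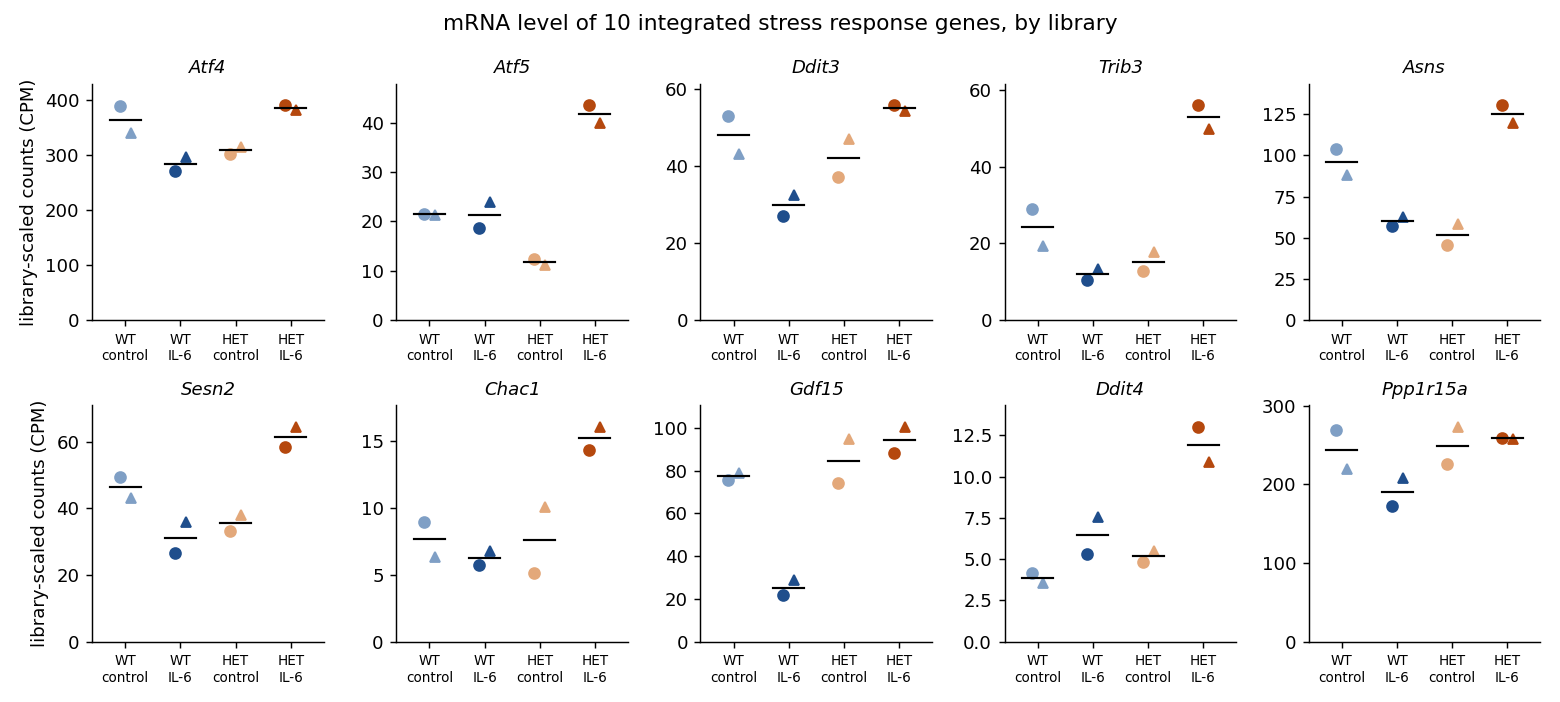
Library-scaled counts (CPM, linear axes from 0) of the 10 genes in the 8 libraries. Circles are libraries numbered 1, triangles those numbered 2 and bars the mean of the 2 libraries. HET IL-6 has the highest mean in each panel. WT IL-6 has the lowest mean for Atf4, Ddit3, Trib3, Sesn2, Chac1, Gdf15 and Ppp1r15a, HET control for Atf5 and Asns, and WT control for Ddit4.

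Of the transcription factors, Atf4 and Ddit3 were lower with IL-6 in WT and higher with IL-6 in HET, whereas Atf5 was even across the WT groups and spanned its whole range within HET. Values are in CPM for libraries 1 and 2 of a group, and a change is a log2 fold change with its standard error (SE) from the edgeR fit (n = 2 libraries a group). A gene is said to have risen or fallen only where it was called, at an adjusted p under 0.05 over all tested genes.

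Atf4 (chromosome 15, 80255184 to 80257541, mm10) encodes the central factor of the response. It was at 388 and 340.1 CPM in WT control, 271 and 295 in WT with IL-6, 302 and 314 in the HET controls, and 389.9 and 380.4 in HET with IL-6. The IL-6 libraries lay below the controls in WT and above them in HET, and HET IL-6 reached the same range as WT control. Atf4 fell by 0.36 ± 0.09 on the log2 scale in WT and rose by 0.32 ± 0.08 in HET. The WT call was lost without WT IL-6 number 1 (-0.30) or WT control number 1 (-0.26). The HET call was lost without any 1 of the 4 HET libraries (0.29 to 0.35), with the sign kept.

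Atf5 (chromosome 7, 44812256 to 44816658) encodes a related factor that activates mitochondrial and cytosolic stress genes. It was at 21.6 and 21.3 CPM in WT control and at 18.6 and 24.0 in WT IL-6, 2 ranges that overlap (-0.02 ± 0.12). HET control had the lowest values, 12.3 and 11.3 CPM, and HET IL-6 the highest, 43.6 and 40.0. Atf5 rose with IL-6 in HET by 1.83 ± 0.12, a 3.55-fold change. HET was below WT in control (-0.86 ± 0.13) and above it after IL-6 (0.98 ± 0.12), both called.

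Ddit3 (chromosome 10, 127290774 to 127296288) encodes CHOP, a factor linked to cell death under lasting stress. It was at 53.1 and 43.1 CPM in WT control, 27.0 and 32.6 in WT with IL-6, 37.3 and 47.0 in the HET controls, and 55.9 and 54.4 in HET with IL-6. WT IL-6 lay below the other 6 libraries and HET IL-6 above them, while the control groups overlapped. Ddit3 fell by 0.70 ± 0.13 in WT and rose by 0.39 ± 0.12 in HET. The HET call was lost without HET IL-6 number 1 (0.37), HET IL-6 number 2 (0.41) or HET control number 1 (0.23). Other genes overlap 4.73% of its exon bases and 4.11% of those of Atf5, and the strand setting of the counting is not given.

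Trib3, Asns, Sesn2 and Chac1 are targets of ATF4 or CHOP, and in all 4 both HET IL-6 libraries lay above the other 6. Trib3 (chromosome 2, 152337422 to 152344032) encodes a pseudokinase that restrains AKT and, as feedback, ATF4 and CHOP. It was at 29.0 and 19.4 CPM in WT control, 10.5 and 13.4 in WT with IL-6, 12.8 and 17.7 in the HET controls, and 56.2 and 50.0 in HET with IL-6. The lowest values were shared by WT IL-6 and HET control, which overlapped. Trib3 fell with IL-6 in WT (-1.03 ± 0.21) and rose in HET (1.80 ± 0.19). After IL-6 its level in HET was 4.45-fold that in WT (2.15 ± 0.20), the largest such difference among the 10 genes. The WT call was lost without WT IL-6 number 1 (-0.86).

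Asns (chromosome 6, 7675169 to 7693254) encodes asparagine synthetase, a textbook target of the amino acid arm of the response. It was at 104 and 88.4 CPM in WT control, 57.1 and 62.7 in WT with IL-6, 45.3 and 58.4 in the HET controls, and 131 and 119.9 in HET with IL-6. In control Asns was thus lower in HET than in WT (-0.89 ± 0.12, called), and after IL-6 it was higher. It fell with IL-6 in WT (-0.68 ± 0.12) and rose in HET (1.27 ± 0.12), and these calls held without each library in turn.

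Sesn2 (chromosome 4, 132492032 to 132510501) encodes a leucine sensor that inhibits mTORC1. It was at 49.4 and 43.2 CPM in WT control, 26.5 and 35.8 in WT with IL-6, 33.3 and 37.9 in the HET controls, and 58.3 and 64.5 in HET with IL-6. As for Trib3, WT IL-6 and HET control overlapped at the bottom. Sesn2 fell in WT (-0.58 ± 0.13) and rose in HET (0.79 ± 0.12). The WT call was lost without WT IL-6 number 1 (-0.37) or WT control number 1 (-0.48).

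Chac1 (chromosome 2, 119351229 to 119354381) encodes an enzyme that degrades glutathione. It was at 8.96 and 6.35 CPM in WT control, 5.75 and 6.75 in WT with IL-6, 5.16 and 10.1 in the HET controls, and 14.3 and 16.1 in HET with IL-6. The first 3 groups overlapped one another, and HET control spanned them all. Chac1 was not called in WT (-0.31 ± 0.27) and rose in HET (1.00 ± 0.24). The HET call was lost without HET IL-6 number 2 (0.91), HET control number 1 (0.60) or WT IL-6 number 1 (1.00).

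Gdf15, Ddit4 and Ppp1r15a have further known inputs. Gdf15 and Ppp1r15a fell in WT and were not called in HET, and Ddit4 rose in both genotypes. Gdf15 (chromosome 8, 70629393 to 70632456) encodes a secreted cytokine of the TGF-beta family that is also a p53 target. It was at 75.8 and 78.7 CPM in WT control, 21.7 and 28.7 in WT with IL-6, 74.1 and 94.8 in the HET controls, and 88.2 and 100.4 in HET with IL-6. WT IL-6 stood alone at the bottom, and the HET groups overlapped. Gdf15 fell 3.09-fold with IL-6 in WT (-1.63 ± 0.14), the largest fall of the 10, and was not called in HET (0.16 ± 0.13).

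Ddit4 (chromosome 10, 59949669 to 59951834) encodes REDD1, an inhibitor of mTORC1 that hypoxia and glucocorticoids also raise. It was at 4.18 and 3.57 CPM in WT control, 5.33 and 7.56 in WT with IL-6, 4.86 and 5.52 in the HET controls, and 13.0 and 10.9 in HET with IL-6. It was the 1 member that rose with IL-6 in both genotypes, by 0.71 ± 0.20 in WT and 1.19 ± 0.17 in HET. The difference of these responses was not called (0.48 ± 0.26). The WT call was lost without WT IL-6 number 2 (0.46) or WT control number 2 (0.60), and that of HET over WT after IL-6 (0.89 ± 0.17) without WT IL-6 number 1 (0.65).

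Ppp1r15a (chromosome 7, 45522916 to 45526268) encodes GADD34, which brings a phosphatase to eIF2 and ends the response. It was at 269 and 219.7 CPM in WT control, 172 and 208 in WT with IL-6, 225 and 273 in the HET controls, and 259 and 258 in HET with IL-6. WT IL-6 was below the other 6 libraries, and the HET groups overlapped. Ppp1r15a fell slightly in WT (-0.36 ± 0.12), a call lost without WT IL-6 number 1 (-0.23), WT control number 1 (-0.21) or either HET IL-6 library (-0.34). It was at 0.05 ± 0.12 in HET. The call after IL-6 for HET over WT (0.44 ± 0.12) was lost without WT IL-6 number 1 (0.31) or either HET IL-6 library (0.43).

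**Figure D2:**
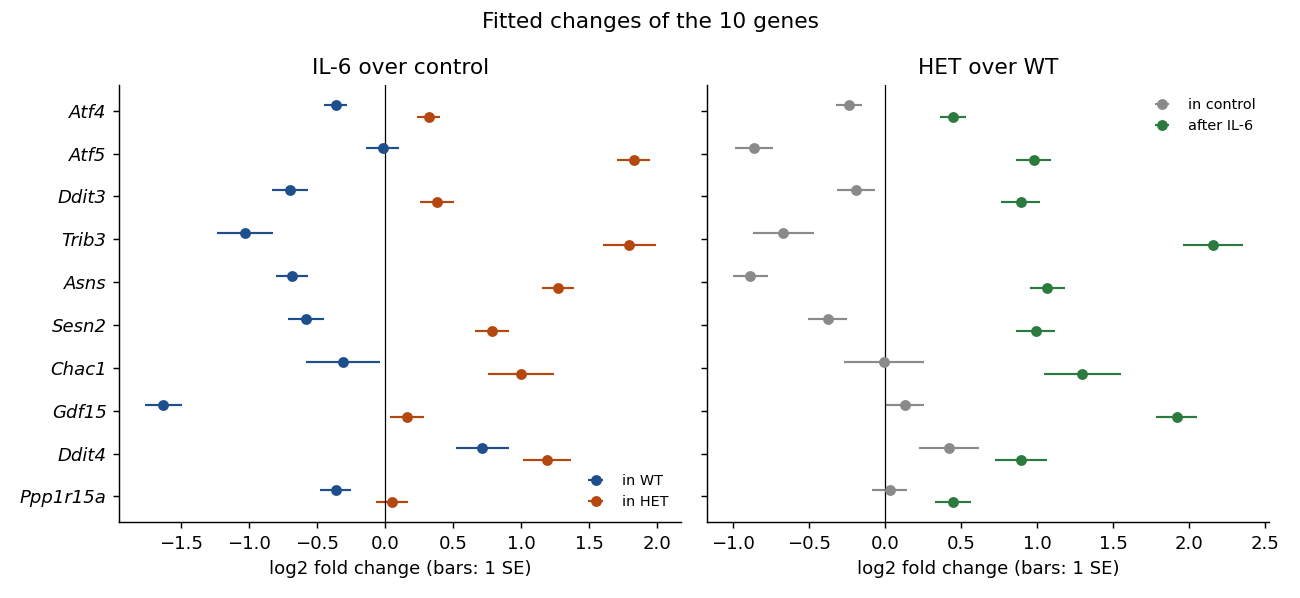
Log2 fold changes of the 10 genes with 1 SE, for IL-6 over control in each genotype (left) and HET over WT in each treatment (right). Ddit4 is the 1 gene clearly to the right of 0 in WT (0.71), and after IL-6 all 10 lie to the right of 0 for HET over WT (0.44 to 2.15).

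Over the 10 genes, IL-6 against control in WT gave 1 called higher and 7 called lower, where 7.91% of all tested genes were called higher and 10.4% lower. The median log2 fold change was -0.47, against -0.01 over all tested genes. The libraries of the groups were apart for 1 gene upward and 7 downward, as for 24.1% and 28.4% of tested genes. In HET 8 were called higher and none lower (8.87% and 9.41% of tested genes), with a median of 0.89 against 0.01, and 8 had groups apart upward (32.8%, and 32.0% downward). Without both HET number 2 libraries 6 were called higher in HET, and without both number 1 libraries 5. Because these contrasts were in view when the genes were chosen, nothing is read from the counts.

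HET against WT in control gave 2 members called lower, Atf5 and Asns, and none higher (2.05% and 2.81% of tested genes). Groups were apart downward for 5 members, Atf4, Atf5, Trib3, Asns and Sesn2 (25.2% of tested genes), and upward for Ddit4 (25.3%). By DESeq2, 3 were called lower. Trib3 (-0.67 ± 0.20), Sesn2 (-0.38 ± 0.13) and Atf4 (-0.24 ± 0.08) missed the call. Without WT control number 2, Trib3 (-0.93) and Atf4 (-0.33) were called, and without either WT IL-6 library Sesn2 was (-0.38). Without both HET number 2 libraries 3 were called lower, and without both number 1 libraries 2.

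HET against WT after IL-6 gave all 10 called higher and none lower (13.2% and 8.80% of tested genes), with log2 fold changes from 0.44 for Ppp1r15a and Atf4 to 2.15 for Trib3 and a median of 0.98. Groups were apart upward for all 10, as for 32.7% of tested genes, and 32.3% downward. With offsets for GC content and length, 8 members and 1575 of all genes were called, and Chac1 and Ppp1r15a were not. The log2 fold changes of the 10 then ran from 0.18 to 1.79, with a median of 0.79. Without both HET number 2 libraries 9 were called, and without both number 1 libraries 8. Chac1 (1.30 ± 0.25) lost its call without WT IL-6 number 1 (1.18).

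The genotype difference of the IL-6 responses, HET minus WT, was called for 7 of the 10 and was positive for all 10 (4.52% of tested genes were called higher and 3.60% lower). It was 2.82 ± 0.28 for Trib3, 1.95 ± 0.16 for Asns, 1.84 ± 0.17 for Atf5 and 1.79 ± 0.19 for Gdf15. It was 1.37 ± 0.18 for Sesn2, 1.08 ± 0.18 for Ddit3 and 0.68 ± 0.12 for Atf4. Chac1 (1.30 ± 0.36), Ddit4 and Ppp1r15a (0.41 ± 0.16) were not called, although Chac1 was without HET control number 2 (1.87) and Ppp1r15a without WT control number 2 (0.56). This comparison shares its libraries with the other 4. Without both HET number 2 libraries 8 members were called, and without both number 1 libraries 6. Offsets for GC content and length moved the split of called genes over the table from 55.7% higher to 44.3% higher, and left 7 members called, all higher.

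The members did not follow one course. As a description over the 8 libraries, which share groups of 2, Pearson's r of a gene's log2 CPM with the mean of the other 9 was 0.99 for Trib3, 0.98 for Sesn2, 0.93 for Atf4, 0.91 for Ddit3 and 0.90 for Chac1. It was 0.87 for Asns, 0.73 for Ppp1r15a, 0.67 for Gdf15, 0.66 for Atf5 and 0.54 for Ddit4. Averaged as z-scores over the 10 genes, the libraries were at 1.17 and 1.12 in HET IL-6, 0.41 and -0.15 in WT control, -0.70 and -0.09 in HET control, and -1.20 and -0.57 in WT IL-6. WT control number 2 and HET control number 2 were therefore close to each other, and the control groups did not stand apart in this average.

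Levels can be compared between genes only per length. On the scale of library-scaled counts divided by gene length (RPKM, mean ± SD, n = 2), Atf4 was the highest in each group, at 154 ± 14.3 in WT control and 163 ± 2.87 in HET IL-6, followed by Ppp1r15a at 83.2 ± 11.8 and 88.0 ± 0.0901. Gdf15 came next in WT control (41.7 ± 1.10), HET control (45.6 ± 7.92) and HET IL-6 (50.9 ± 4.69), but in WT IL-6 (13.6 ± 2.67) it stood below Asns (21.9 ± 1.45) and Ddit3 (17.4 ± 2.33), with ranges apart. Asns at 35.1 ± 3.94 and Ddit3 at 28.1 ± 4.12 followed in WT control, with ranges apart. Sesn2 (13.3 ± 1.28) and Atf5 (10.8 ± 0.0836) could each not be told from Trib3 (11.4 ± 3.22) by their ranges. Chac1 (4.68 ± 1.13) and Ddit4 (2.21 ± 0.245) were the lowest. In HET IL-6 Trib3 (25.0 ± 2.06) and Atf5 (21.0 ± 1.26) stood above Sesn2 (17.7 ± 1.25), with ranges apart, whereas Gdf15 and Asns (45.8 ± 2.77) overlapped.

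The wider pathway was taken from 6 lists of 71 further genes of the integrated stress response, of which 68 were tested; Cbs, Stc2 and Fgf21 were too low. These are not members, and edgeR p-values are given for them. The lists too were drawn up with earlier results known, so these counts are not an independent check. With IL-6 in WT 2 rose and 18 fell (29.4% called, against 18.3% of all tested genes). In HET 34 rose and 1 fell (51.5%, against 18.3%). HET against WT gave 1 higher and 3 lower in control (5.88%, against 4.85%), and 38 higher and 1 lower after IL-6 (57.4%, against 22.0%). The difference of responses was called for 29, all positive (42.6%, against 8.12%). In the order of these 5 comparisons the median log2 fold changes of the 68 were -0.13, 0.29, -0.10, 0.33 and 0.35, whereas those of all tested genes were within 0.02 of 0.

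Those counts moved with single libraries. In WT the count of 20 was 10 without WT IL-6 number 1. In HET the 35 became 23 when HET IL-6 number 2 was left out and 22 when HET control number 1 was. In control the 4 became 0 or 2 when HET control number 1 or 2 was left out, and 9 or 14 when WT control number 1 or 2 was. After IL-6 the 39 became 25 without HET IL-6 number 2 and 24 without WT IL-6 number 1. For the difference the 29 became 15 or 17 without HET IL-6 number 1 or 2, and 12 without HET control number 1. Without both HET number 2 libraries the counts were 15, 13, 2, 24 and 17, and without both number 1 libraries 14, 12, 1, 25 and 12. Called without each library in turn were 8 of 20, 21 of 35, 0 of 4, 22 of 39 and 12 of 29.

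**Figure D3:**
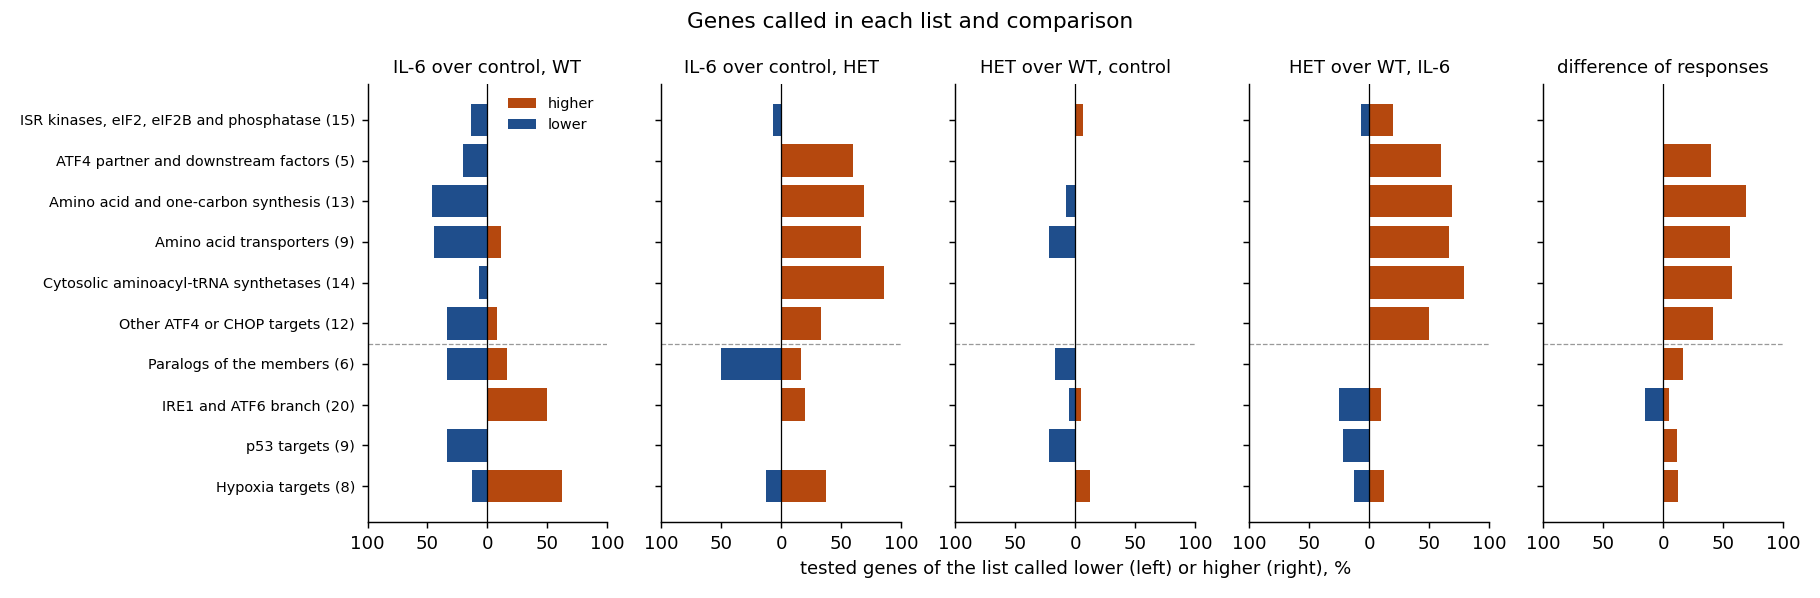
Share of the tested genes of each list called lower (left, blue) or higher (right, orange) in each of the 5 comparisons, with the number tested in parentheses. Above the dashed line are the 6 lists of the integrated stress response, and below it are 4 lists for comparison. Among the 6, the aminoacyl-tRNA synthetases had 12 of 14 higher with IL-6 in HET, against 8.87% of all tested genes.

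The first list held 15 genes for the eIF2 kinases, eIF2, its exchange factor eIF2B, a phosphatase subunit and associated regulators. Of these, 2 fell with IL-6 in WT (13.3%, against 18.3% of all tested genes) and 1 fell in HET (6.67%, against 18.3%). HET against WT gave 1 higher in control (6.67%, against 4.85%), and 3 higher and 1 lower after IL-6 (26.7%, against 22.0%). None was called for the difference (1 at an unadjusted p under 0.05, 0 by DESeq2). Eif2ak2 encodes PKR, the kinase for double-stranded RNA. It fell in both genotypes (-0.34 ± 0.10 in WT, edgeR adjusted p = 0.0266, and -0.39 ± 0.10 in HET, edgeR adjusted p = 0.0130), calls that were each lost without 4 of the 8 libraries (-0.18 to -0.32 and -0.36 to -0.41). The kinases HRI (Eif2ak1), PERK (Eif2ak3) and GCN2 (Eif2ak4) were called in no comparison, with IL-6 log2 fold changes of -0.06, 0.11 and 0.01 in WT and -0.08, 0.07 and 0.08 in HET. Ppp1r15b, the constitutive counterpart of Ppp1r15a, was at -0.01 ± 0.07 in WT and -0.00 ± 0.07 in HET. Gcn1l1, the GCN2 activator, was higher in HET than in WT both in control and after IL-6, by 0.39 ± 0.08 each (edgeR adjusted p = 0.0205 and 0.00537). The call in control was lost without HET control number 1 (0.33), HET control number 2 (0.44) or WT control number 2 (0.34). HET over WT after IL-6 was -0.30 ± 0.09 for the eIF2 alpha gene Eif2s1 (edgeR adjusted p = 0.0228). Both calls after IL-6 were lost without WT IL-6 number 1 (0.34 and -0.21) and without HET IL-6 number 2 (0.32 and -0.34). That of Eif2s1 also ended when HET IL-6 number 1 was left out (-0.29).

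Partner factors of ATF4 changed unevenly. Atf3, a repressor that ATF4 induces, fell in WT (-0.88 ± 0.11, edgeR adjusted p = 5.89e-05) and was not called in HET (-0.28 ± 0.11). Nupr1, a small stress-induced chromatin protein, rose in HET (1.08 ± 0.16, edgeR adjusted p = 0.000412) and was at 0.23 ± 0.16 in WT. Cebpg, a binding partner of ATF4, rose in HET (0.50 ± 0.09) and was at 0.18 ± 0.09 in WT, with no call for the difference (0.32 ± 0.12). Cebpb was called nowhere, and other genes overlap 20.7% of its exon bases. In all, 3 of the 5 factors rose in HET, 1 fell in WT, and 2 were called for the difference, Atf3 (0.60 ± 0.15) and Nupr1 (0.84 ± 0.22). Of all tested genes, 18.3% were called with IL-6 in each genotype and 8.12% for the difference. The difference calls of Atf3 and Nupr1 were lost without 6 and 5 of the 8 libraries (0.42 to 0.66 and 0.56 to 0.85).

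Of 13 genes for amino acid and one-carbon synthesis, 6 fell in WT and none rose, while 9 rose in HET and none fell. Called were 46.2% and 69.2%, against 18.3% of all tested genes in each genotype. The widest swing was that of Aldh1l2, a mitochondrial folate dehydrogenase, at 9.0 and 5.83 CPM in WT control, 1.53 and 1.72 in WT with IL-6, 1.79 and 2.72 in the HET controls, and 9.57 and 7.64 in HET with IL-6. WT IL-6 and HET control were both low and both other groups high. Its difference of responses was 4.11 ± 0.36 (edgeR adjusted p = 7.50e-05), with 14.1% of its exon bases overlapped by other genes. Shmt2, mitochondrial serine hydroxymethyltransferase, fell by 0.66 ± 0.09 in WT and rose by 0.69 ± 0.09 in HET. Pck2 and the serine synthesis gene Psph (10.4% of exon bases overlapped) also fell in WT (-0.77 ± 0.13 and -0.70 ± 0.13), with differences of 1.29 ± 0.18 and 1.40 ± 0.18. The calls of these 4 genes in WT and for the difference held without each library in turn, and the edgeR adjusted p of the 6 genes with the smallest p for the difference was at most 0.00268.

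Of 9 amino acid transporters, 6 rose in HET and none fell, while in WT 4 fell and 1 rose. Called were 66.7% and 55.6%, against 18.3% of all tested genes in each genotype. Slc7a5, the light chain of the leucine transporter LAT1, was at 115 and 94.4 CPM in WT control, 59.9 and 71.2 in WT with IL-6, 81.7 and 88.1 in the HET controls, and 146 and 142 in HET with IL-6. Its 4 groups did not overlap one another, apart in the order WT IL-6, HET control, WT control and HET IL-6. Slc7a5 fell by 0.68 ± 0.11 in WT and rose by 0.76 ± 0.10 in HET, and its difference was 1.44 ± 0.15 (edgeR adjusted p = 0.000147). Slc1a4, a neutral amino acid transporter, had a difference of 2.13 ± 0.22. Its call in WT (-0.56 ± 0.15) was lost without WT IL-6 number 1 (-0.40) or WT control number 1 (-0.34). Slc7a11, the cystine transporter subunit, was the 1 that rose in WT. It rose in both genotypes, by 0.91 ± 0.16 in WT and 0.75 ± 0.16 in HET (difference -0.17 ± 0.22, not called).

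Of 14 genes listed as cytosolic aminoacyl-tRNA synthetases, a list that includes the tRNA export gene Xpot, 12 rose in HET and none fell, whereas 1 fell in WT. These were 85.7% and 7.14%, against 18.3% of all tested genes in each genotype. The enzymes join amino acids to tRNAs. The fall in WT was that of Sars (-0.39 ± 0.12, edgeR adjusted p = 0.0403), a call lost without 5 of the 8 libraries (-0.18 to -0.39). In HET Sars rose by 0.69 ± 0.12, Aars by 0.60 ± 0.10, Mars by 0.47 ± 0.09 and Iars by 0.45 ± 0.07. Aars shares 15.1% of its exon bases with other genes. The rises in HET were smaller than that of Asns (1.27). For the difference 8 of the 14 were called (57.1%, against 8.12% of all tested genes), led by Sars (1.07 ± 0.17).

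Of 12 other ATF4 or CHOP targets, 4 fell and 1 rose in WT, and 4 rose and none fell in HET. Called were 41.7% and 33.3%, against 18.3% of all tested genes in each genotype. Bbc3, which encodes the pro-apoptotic protein PUMA, resembled Gdf15 in falling in WT (-1.06 ± 0.16, edgeR adjusted p = 0.000347) and being at 0.01 ± 0.14 in HET. Eif4ebp1, an inhibitor of cap-dependent translation, rose in HET (0.76 ± 0.11) and was at -0.23 ± 0.12 in WT. Ero1l, an oxidoreductase of the endoplasmic reticulum, rose in both, by 0.39 ± 0.09 and 0.65 ± 0.09. The Ero1l call in WT was lost without WT IL-6 number 1 (0.28).

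The opposite direction in the 2 genotypes was counted over genes. The IL-6 comparisons in WT and HET share no library, but their calls share 1 fit and its spread over all 8 libraries. The 2 sets of calls are therefore not independent. Called lower in WT and higher in HET were 5 of the 10 members, Atf4, Ddit3, Trib3, Asns and Sesn2, and 76 of 13721 tested genes (0.554%). So were 10 of the 68 other genes of the pathway: Aldh1l2, Lonp1, Pck2, Phgdh, Psph, Sars, Shmt2, Slc1a4, Slc6a9 and Slc7a5. Some of these calls rest on single libraries. Of the 5 members, only Asns kept both calls without each library in turn. With a single library left out, Atf4 lost its WT or its HET call, Ddit3 its HET call, and Trib3 and Sesn2 their WT calls, as given above. Lonp1 lost its WT call (-0.31) without 6 of the 8 libraries (-0.16 to -0.31) and its HET call (0.30) without any 1 of the 4 HET libraries (0.27 to 0.34). Phgdh lost its WT call (-1.88) without WT IL-6 number 1 (-1.58) and its HET call (1.40) without any 1 of the 4 HET libraries (1.30 to 1.51). Slc6a9 lost its WT call (-1.35) without WT IL-6 number 1 (-1.12) or WT control number 1 (-0.60), and Pck2 its HET call (0.52) without HET IL-6 number 2 or HET control number 1 (0.44 to 0.48). Slc6a9 shares 30.2% of its exon bases with other genes. Whatever their calls, 9 of the 10 members and 40 of the 68 (58.8%) were below 0 in WT and above 0 in HET, compared with 22.2% of all tested genes. These 9 include Atf5 (-0.02 ± 0.12 in WT) and Ppp1r15a (0.05 ± 0.12 in HET), each nearer to 0 than its SE. With GC and length offsets 2 members were above 0 in WT.

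**Figure D4:**
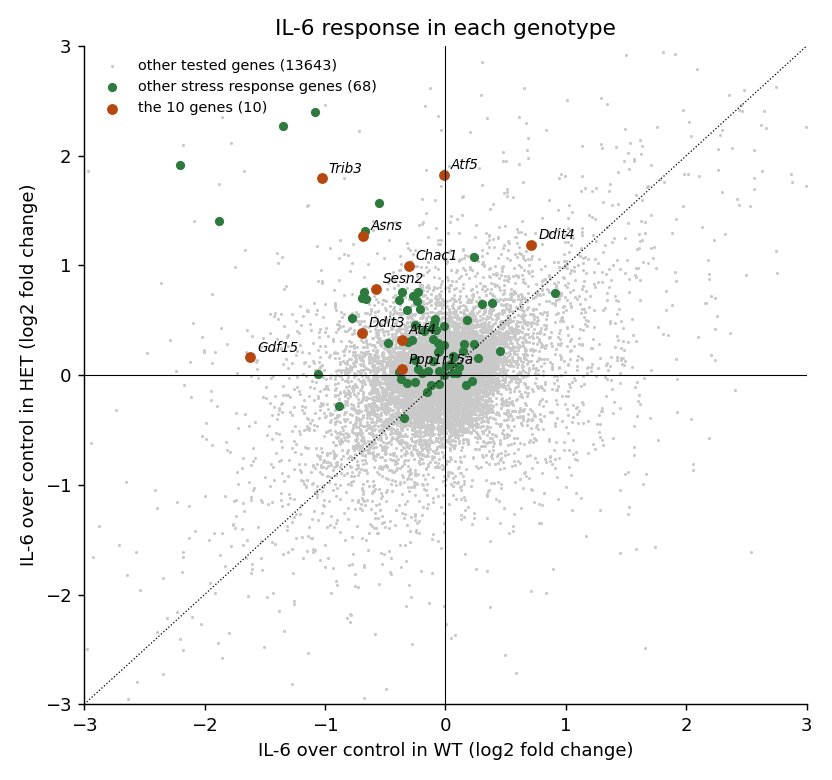
Log2 fold change with IL-6 in WT (horizontal) and in HET (vertical) for the tested genes, with 54 beyond the axes. Orange marks the 10 genes and green the 68 others of the pathway, and 9 of the 10 lie in the upper left, below 0 in WT and above 0 in HET. Of these, Atf5 (-0.02 in WT) and Ppp1r15a (0.05 in HET) lie close to a line at 0.

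Neighbouring pathways are given as counts, with no test between lists. Of 20 genes of the IRE1 and ATF6 branches of the unfolded protein response, which act beside the eIF2 kinase PERK, 10 rose in WT (50.0%, against 18.3% of all tested genes), 4 rose in HET (20.0%, against 18.3%), and none fell in either (13 and 10 at an unadjusted p under 0.05, 11 and 6 called by DESeq2). For the difference 1 was called positive and 3 negative (20.0%, against 8.12%). Of 8 hypoxia targets, 5 rose and 1 fell in WT, and 3 rose and 1 fell in HET (75.0% and 50.0%). Of 9 p53 targets, 3 fell in WT (33.3%) and none was called in HET (3 at an unadjusted p under 0.05, 0 by DESeq2). The hypoxia and p53 lists each had 1 gene called positive for the difference and none negative (12.5% and 11.1%, against 8.12%). Among 6 paralogs of the members, 1 rose and 2 fell in WT, 1 rose and 3 fell in HET, and 1 was called positive for the difference, with edgeR adjusted p at most 0.0476. These were 50.0%, 66.7% and 16.7%, against 18.3%, 18.3% and 8.12% of all tested genes. Trib1 fell in both genotypes (-0.67 ± 0.10 and -0.32 ± 0.10), as did Sesn1 (-0.61 ± 0.09 and -0.53 ± 0.09). Trib2 fell in HET (-2.27 ± 0.68), from 0.262 and 1.05 CPM in the controls to 0.0414 and 0.182 with IL-6. Its value in HET IL-6 number 1 was below the floor of 3 counts (0.124 CPM). Sesn3 rose in WT (0.38 ± 0.11). Chac2 rose in HET (0.83 ± 0.21), as Chac1 did, with a difference of 1.04 ± 0.30. The HET calls of Trib1, Trib2 and Chac2 were lost without 4, 3 and 3 of the 4 HET libraries (-0.21 to -0.42, -0.97 to -3.83, and 0.68 to 0.87). The WT call of Sesn3 was lost without WT IL-6 number 1 or WT control number 1 (0.21 to 0.32), and the difference call of Chac2 without 7 of the 8 libraries (0.82 to 1.21).

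The genes most like the 10 were sought among 9271 candidates with a mean of at least 5 CPM, by Pearson's r over the 8 libraries with the members' mean z-score. The 10 with the highest r were Gtpbp2 (0.99), Mid1ip1 (0.99), Slc7a5 (0.98), Naglu (0.97), Cars (0.97), Ttc7b (0.97), Pgpep1 (0.97), Sars (0.97), Cfp (0.97) and B4galt7 (0.97). Slc7a5, Cars and Sars are in the lists above, and the other 7 are in none of them. Gtpbp2, which encodes a GTPase that rescues stalled ribosomes, was at mean levels of 106 CPM in WT control, 83.4 in WT with IL-6, 97.6 in the HET controls and 135 in HET with IL-6. Cfp, which encodes the complement factor properdin, was at 613, 521, 613 and 822 CPM in the same order, even between the control groups. Naglu, a lysosomal enzyme, was at 120.4, 92.0, 113 and 152 CPM. Mid1ip1 shares 25.5% of its exon bases with other genes.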

How the data were processed

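The authors deposited raw gene counts for 55376 genes in 8 libraries. Tools in the submitters' processing notes are featureCounts 1.6.2, SAMtools 1.9, STAR 2.7.9a and fastp 0.12.4, with mm10 as the build. Strand setting and annotation release (not given in the sources used here) are unknown. Counts were fitted with edgeR 4.0.16 (R 4.3.3): filterByExpr with a minimum count of 10, TMM, 1 mean for each of 4 groups over all 8 libraries, robust quasi-likelihood F test with 4 residual degrees of freedom, 2-sided, Benjamini-Hochberg adjustment over 13721 genes. CPM divides by the tested total times the TMM factor, and RPKM also by the deposited length. A floor of 3 counts was 0.0608 to 0.161 CPM. P-values measure only the spread between libraries, part of which may be technical. The 2 libraries within each group differed by more than count sampling (chi-square per gene 6.13 to 17.4). Libraries of different groups were not compared in this way, and the check cannot show whether libraries share a mouse. The script was tested on simulated data.

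The members and lists were chosen with earlier results of these data known. Named were the 10 members, Dnmt3a, in each list up to 6 called genes with the smallest p, Eif2ak1 to Eif2ak4, Ppp1r15b, Atf3, Cebpb, Cebpg and Nupr1, and the 10 genes most like the members (log2 of CPM plus 0.5). Xpot, Fcer1a, Kit, Lum and the genes too low to test were named after their values were seen. Gcn1 is Gcn1l1 in the table. Alternatives were other scalings, DESeq2 1.42.0, other filters, fewer libraries and replicate blocks. GC and length offsets, and omission of both HET libraries of a number, were added after seeing the data.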

Additional observations from a re-analysis of the deposited data

Results flagged for a closer look

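Of all tested genes, 8.12% were called for the difference of the IL-6 responses. In the edgeR test of the difference itself, 7 members and 29 other genes of the pathway were called. Members and lists were chosen with earlier results of these data known, so these calls are not an independent check. Values are given for 31 of the called genes, the members and, in each list, up to 6 with the smallest p. Among the 10 members the log2 difference, HET minus WT, was 2.82 for Trib3, 1.95 for Asns, 1.84 for Atf5, 1.79 for Gdf15, 1.37 for Sesn2, 1.08 for Ddit3 and 0.68 for Atf4, genes that were chosen with this contrast in view. Among amino acid and one-carbon genes it was 4.11 for Aldh1l2, 1.40 for Psph, 1.35 for Shmt2, 1.29 for Pck2, 0.92 for Mthfd2 and 0.91 for Aldh18a1. Among transporters it was 3.62 for Slc6a9, 2.13 for Slc1a4, 1.44 for Slc7a5, 0.60 for Slc7a1 and 0.39 for Slc38a2. Among aminoacyl-tRNA synthetases it was 1.07 for Sars, 0.81 for Aars, 0.72 for Cars, 0.58 for Gars, 0.54 for Nars and 0.47 for Iars. For the factors Atf3 and Nupr1 it was 0.60 and 0.84. Among other targets it was 1.99 for Vldlr, 1.07 for Bbc3, 0.98 for Eif4ebp1, 0.77 for Sqstm1 and 0.61 for Lonp1. Of the 22 named other than Atf3, Nupr1 and the members, the edgeR adjusted p was at most 0.0427, and Slc38a2, Slc7a1, Gars, Cars, Nars, Iars, Bbc3, Sqstm1, Lonp1 and Vldlr lost the call without at least 1 library.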

How the results depend on the processing

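The direction of each member's log2 fold change, where called, was kept in all alternatives run: of the member values 873 stayed on their side of the threshold, 56 lost a call and 21 gained one. Over the omissions of single libraries, counts of members called ran from 4 to 8 in WT, 5 to 8 in HET, 2 to 4 for HET against WT in control, 7 to 10 after IL-6, and 7 to 8 for the difference. Counts of other pathway genes ran from 10 to 30, 22 to 38, 0 to 14, 24 to 43 and 12 to 36 in the same order, and those of all genes from 1577 to 3073, 1203 to 3061, 33 to 1304, 879 to 4000 and 304 to 2123.

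Leaving out both HET number 1 libraries left 5 members called with IL-6 in HET. The 35 other pathway genes called there became 12 without this pair and 13 without both number 2, the 39 after IL-6 became 25 and 24, and the 29 for the difference 12 and 17. In control the 4 became 8 by DESeq2, 10 with no filter, 13 with GC and length offsets, and 1 and 2 without both number 1 or number 2 libraries, and the 2 members became 4 with no filter and 4 with the offsets. All genes called in HET (2508) became 3945 from those 4 libraries alone and 697 and 835 without both number 1 or number 2 libraries. In control 666 became 1078 with no filter, 437 from those 4 libraries alone, and 79 and 203. After IL-6 3021 became 1575 with the offsets, and 1042 and 862. For the difference 1114 became 1700 with the offsets, and 188 and 428. The cause was not tested.

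The labels number the libraries of each group 1 and 2 but do not say that a number marks a mouse or a batch. In the deposited column names the number follows the genotype, and the same numbers occur with and without IL-6. Deviations of same-numbered libraries correlated across 13721 genes at -0.21 between the WT groups, 0.19 between the HET groups and -0.06 to 0.05 otherwise. The main fit did not take the numbers as pairs, a question that these correlations cannot decide. Whether same-numbered HET libraries share a mouse is not stated. In the main fit other pathway genes called were 20 in WT, 35 in HET and 29 for the difference. With a replicate block of the number within genotype they were 14, 28 and 18, and members 6, 6 and 8. With offsets and this replicate block they were 20, 38 and 30. With a replicate block across groups, all genes called were 339 in control and 732 for the difference, and 506 for the difference within genotype. Depth limits Chac1 and Ddit4 most, with 118 and 81 counts in their lowest libraries.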
